A study of Mus musculus with 24 samples.

Results

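The 10 imprinted genes described here are Igf2, Dlk1, Rtl1, Nnat, Zrsr1, Peg3 and Mest, which are known to be expressed mainly from the paternal allele, and Grb10, Phlda2 and Cdkn1c, expressed mainly from the maternal allele. They were taken by name from the deposited gene table, where each of the 10 symbols had 1 of the 14737 gene records. The values do not tell alleles apart, so each is the summed level of both alleles, and parent-of-origin expression was not measured. All 10 passed the filter of at least 1 FPKM in at least 3 samples that left 13373 tested genes. Rtl1 passed it through exactly 3 samples, those of Carma3xpA/+ at d6, so that it had to differ at d6.

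Polyadenylated RNA was sequenced from mouse embryonic stem cells (strain 129/Sv) before and after they formed embryoid bodies. Wild type (WT) cells were compared with Carma3xpA/+ cells, in usual notation cells with 1 allele of the long noncoding RNA gene Carma interrupted by a cassette of 3 polyadenylation signals. Cells of both genotypes were kept on feeder fibroblasts with serum and LIF (d0), and then aggregated in hanging drops for cardiac differentiation and collected at d3, d6 and d10. Each of the 8 groups held 3 samples stated to be biological replicates. The labels do not say whether they are separate clones or cultures, or how many clones carry the Carma allele, and p-values measure the spread between these samples.

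Imprinted genes keep a DNA methylation mark from one parent's germ line, so that one parental copy is used in preference to the other. Many act on growth. Paternally expressed Igf2 is a growth factor and Dlk1 a membrane-bound or shed ligand of the Notch family type. Maternally expressed Grb10 is an adaptor that dampens signalling from the insulin and IGF1 receptors, Cdkn1c (p57) inhibits cyclin-dependent kinases, and Phlda2 restrains placental growth. Their expression is generally low in early pluripotent cells and strong in embryonic mesoderm, endoderm and extraembryonic tissue, and imprints can be disturbed in cultured embryonic stem cells.

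Promoter windows are shown for the members whose level differed between genotypes and for which RefSeq held an entry. Their CG pairs are marked because DNA methylation sits on such pairs. Methylation was not measured, and whether these windows hold an imprint mark was not tested. Each window is the 250 bases before a RefSeq transcription start (build GRCm38.p6), 5′ to 3′ on the gene's strand, with every CG in capitals. The median of 32851 such windows held 6 CG pairs. Grb10 is shown at both of its RefSeq starts.
Grb10, upstream start (chr11:12037421-12037670, minus strand): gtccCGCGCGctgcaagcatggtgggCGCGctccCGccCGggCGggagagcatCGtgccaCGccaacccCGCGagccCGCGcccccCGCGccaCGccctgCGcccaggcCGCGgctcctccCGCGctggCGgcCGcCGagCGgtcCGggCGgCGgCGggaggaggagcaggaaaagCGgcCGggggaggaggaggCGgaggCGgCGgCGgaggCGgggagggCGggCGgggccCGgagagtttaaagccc
Grb10, downstream start (chr11:12027972-12028221, minus strand): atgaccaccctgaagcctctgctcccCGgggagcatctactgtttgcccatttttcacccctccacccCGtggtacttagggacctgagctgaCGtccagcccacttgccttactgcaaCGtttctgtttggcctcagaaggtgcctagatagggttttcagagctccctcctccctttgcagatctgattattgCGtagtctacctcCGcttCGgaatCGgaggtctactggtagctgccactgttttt
Zrsr1 (chr11:22971755-22972004, plus strand): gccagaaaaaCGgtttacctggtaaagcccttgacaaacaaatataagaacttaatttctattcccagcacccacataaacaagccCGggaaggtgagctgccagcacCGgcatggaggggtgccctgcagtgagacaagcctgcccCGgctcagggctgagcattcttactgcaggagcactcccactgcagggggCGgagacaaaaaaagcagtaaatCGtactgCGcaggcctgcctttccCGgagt
Dlk1 (chr12:109452573-109452822, plus strand): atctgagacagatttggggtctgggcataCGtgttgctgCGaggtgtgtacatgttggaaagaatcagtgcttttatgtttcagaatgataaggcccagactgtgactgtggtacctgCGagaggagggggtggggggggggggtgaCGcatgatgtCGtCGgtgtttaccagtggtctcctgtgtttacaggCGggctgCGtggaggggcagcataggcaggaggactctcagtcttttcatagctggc
Phlda2 (chr7:143502525-143502774, minus strand): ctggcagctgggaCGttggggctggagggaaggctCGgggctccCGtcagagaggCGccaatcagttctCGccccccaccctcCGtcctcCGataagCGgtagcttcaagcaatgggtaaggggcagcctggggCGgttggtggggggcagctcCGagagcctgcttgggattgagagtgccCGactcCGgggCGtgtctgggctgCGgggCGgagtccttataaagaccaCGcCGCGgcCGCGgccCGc
Nnat (chr2:157559828-157560077, plus strand): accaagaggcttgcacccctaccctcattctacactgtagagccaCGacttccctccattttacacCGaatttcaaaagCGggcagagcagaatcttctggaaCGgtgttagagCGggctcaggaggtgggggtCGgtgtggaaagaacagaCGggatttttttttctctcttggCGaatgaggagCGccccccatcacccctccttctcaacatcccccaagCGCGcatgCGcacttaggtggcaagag

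The window at the upstream Grb10 start held 40 CG pairs, a number reached by 1.31% of all windows, whereas the downstream start held 8. Phlda2 held 21 (16.3% of windows hold as many), Nnat 12, and Zrsr1 and Dlk1 8 each. The hexamer TGCCGC, the core of the sequence bound by the imprint-protecting protein ZFP57, was searched on both strands. It was in 8.68% of all windows and in none of the 6 shown. Of 14 windows for 8 members it was in 2, the overlapping windows of the downstream Mest start (chr6:30737800-30738049), with 2 matches. Cdkn1c and Rtl1 are named here without a sequence.

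Values are FPKM, fragment counts scaled to transcript length and to the library total, and levels of different genes are compared on this per-length scale. Log2 differences are on the log2(FPKM + 1) scale, which understates changes of low genes, and are given ± SE. Calls of higher or lower needed an adjusted p below 0.05 (limma, Benjamini-Hochberg over the 13373 genes). Summed FPKM was 245274 to 306848 per library, and the number of reads behind a value is unknown. All 7 pluripotency markers were at or above 1 FPKM at d0, where they summed to 869.1 to 1133 FPKM per library, against 58.0 to 75.8 at d6. The 7 cardiomyocyte markers summed to 13.6 to 19.7 at d0 and 557.6 to 809.2 at d6. The 12 fibroblast markers, which feeder cells would bring, summed to 23.6 to 41.0 at d0, 5.74 to 10.2 at d3, 91.5 to 252.1 at d6 and 320.1 to 895.8 at d10. Library 1 of Carma3xpA/+ at d0 stood apart. Across genes it correlated with the other libraries of its group at 0.9497 and 0.9549, against 0.9673 or more in every other replicate pair. The counts of members called between genotypes are given with and without it. Other results that rest on it include it unless stated.

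Between d3 and d6 most of the imprinted genes rose in both genotypes. In WT 8 of 10 rose and 0 fell, beside 35.4% of all tested genes called higher and 24.7% called lower. They were 5 of 7 paternally and 3 of 3 maternally expressed members. In Carma3xpA/+ 9 of 10 rose and 0 fell (37.8% of all genes called higher, 25.5% lower), the additional one being Rtl1, whose high Carma3xpA/+ d6 values let it pass the filter. The median change over the 10 members was 2.00 in WT and 2.35 in Carma3xpA/+ on the log2 scale, beside medians over all tested genes of 0.0961 and 0.109. The member not called in either genotype was Zrsr1. In whole embryoid bodies, more cells of a type and more RNA per cell cannot be told apart.

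The step before and the step after were mixed. From d0 to d3 WT had 2 members higher (Nnat and Mest; 27.7% of all genes) and 4 lower (Igf2, Dlk1, Phlda2 and Cdkn1c; 27.7%). Carma3xpA/+ had 0 higher (27.5%) and 5 lower (24.9%), namely the same 4 and Grb10. With library 1 of Carma3xpA/+ at d0 excluded, 7 were lower (28.4%) and 0 higher (24.6%), Zrsr1 and Peg3 being added, with Peg3 at -1.14 ± 0.23 (adjusted p = 0.000308). From d6 to d10 WT had 0 higher (24.6%) and 1 lower, Phlda2 (23.9%). Carma3xpA/+ had 1 higher, Nnat (26.2%), and 5 lower, Dlk1, Rtl1, Peg3, Mest and Phlda2 (29.1%). Rtl1 is counted although it passed the filter only through the Carma3xpA/+ libraries of d6, so that it had to be lower at d10. Because all groups share 1 estimate of the spread, library 1 of Carma3xpA/+ at d0 also bears on WT contrasts. Without it 5 members were called from d6 to d10 in WT, 1 higher (Zrsr1) and 4 lower (Peg3, Mest, Grb10 and Phlda2), beside 28.1% and 28.5% of all genes.

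**Figure D1:**
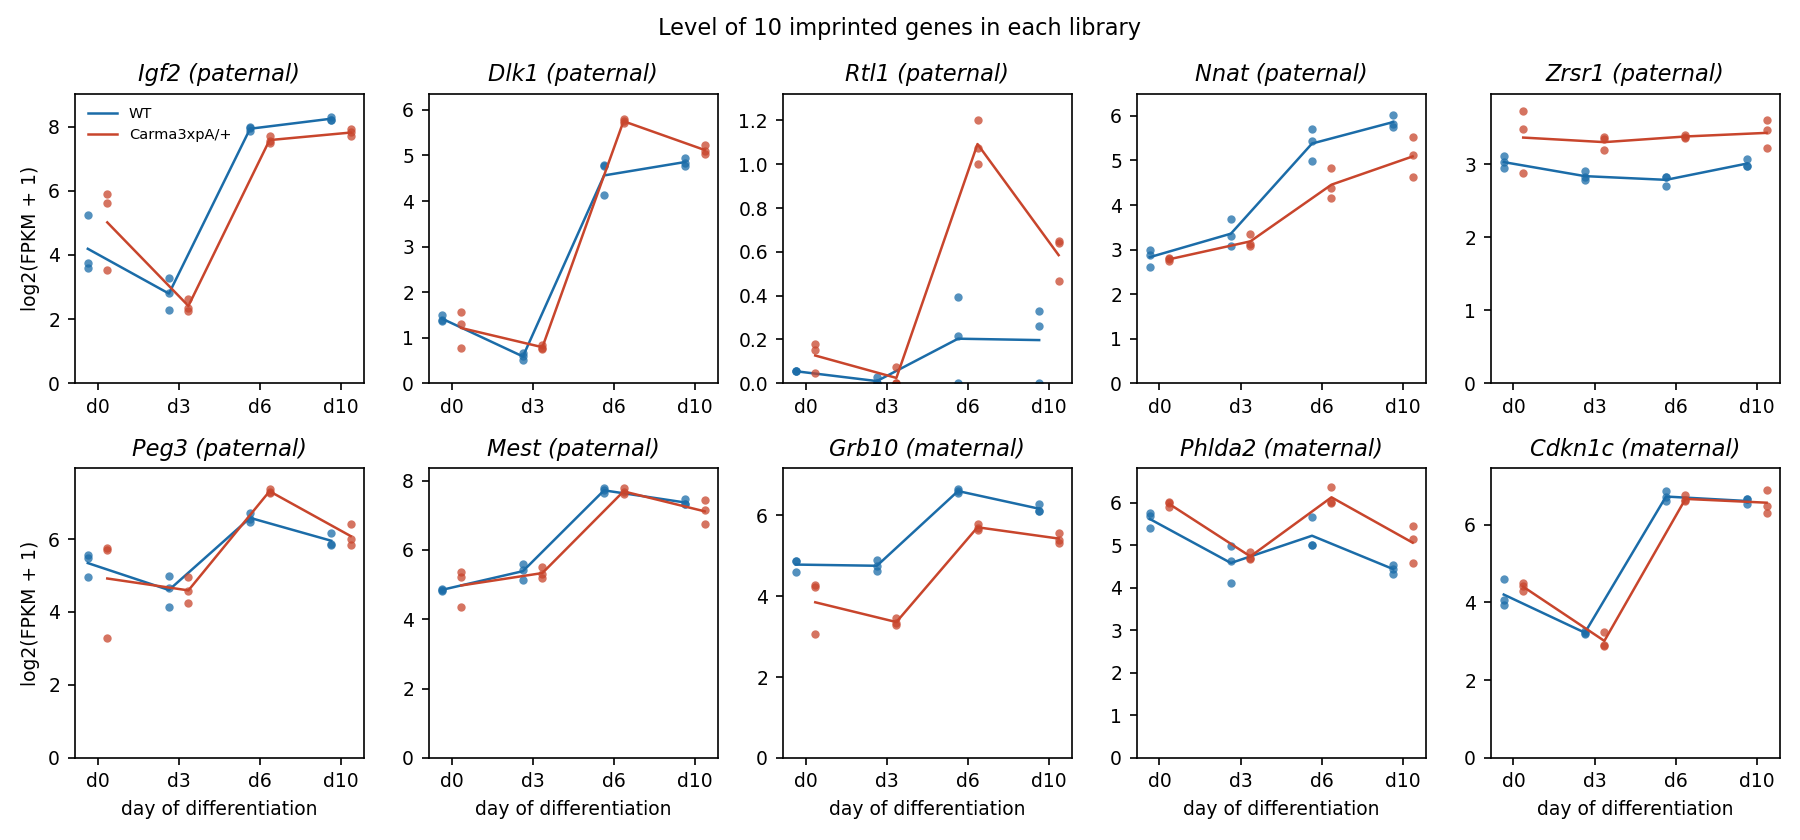
Level of each of the 10 imprinted genes on the log2(FPKM + 1) axis against day, with 1 point per library and lines through the means of WT (blue) and Carma3xpA/+ (red). Most genes are low at d0 and d3 and high at d6 and d10, Grb10 is lower in Carma3xpA/+ on each day, and Dlk1 and Rtl1 peak at d6 in Carma3xpA/+.

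In WT embryoid bodies at d6 the levels spanned from Igf2 at a mean of 244 FPKM and Mest at 209 to Rtl1 at 0.159. Cdkn1c (95.9 to 115 FPKM), Grb10 (92.4 to 99.5) and Peg3 (88.1 to 104) overlapped in the middle of that order. Nnat (30.9 to 51.0) and Phlda2 (31.0 to 49.5) also overlapped, above Dlk1 (16.6 to 26.7) and Zrsr1 (5.54 to 6.11).

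Between genotypes, Grb10 was the member that differed on every day. At d0 it was lower in Carma3xpA/+ as 1 member of 10, with 0 higher, beside 9.29% of all genes called lower and 9.53% called higher. At d3 it was again the 1 member called lower, with 0 higher (1.93% and 4.54% of all genes). At d6 there were 2 members lower, Grb10 and Nnat (3.48%), and 4 higher, Dlk1, Rtl1, Zrsr1 and Phlda2 (4.3%), Rtl1 counted although the filter let it pass only through the higher group. At d10 there were again 2 lower, Grb10 and Nnat (5.91%), and 1 higher, Rtl1 (4.95%). Without library 1 of Carma3xpA/+ at d0 the counts were 3 higher (Igf2, Zrsr1 and Mest) and 1 lower at d0, beside 10.7% and 6.31% of all genes. At d3 they were 1 higher (Zrsr1) and 1 lower (7.35% and 4.34%). At d6 they were 5 higher, Peg3 being added, and 2 lower (7.42% and 5.36%), and at d10 they were 2 higher (Rtl1 and Zrsr1) and 2 lower (8.05% and 9.83%). Igf2, Mest, Peg3 and Cdkn1c were called on no day with all libraries in the fit.

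**Figure D2:**
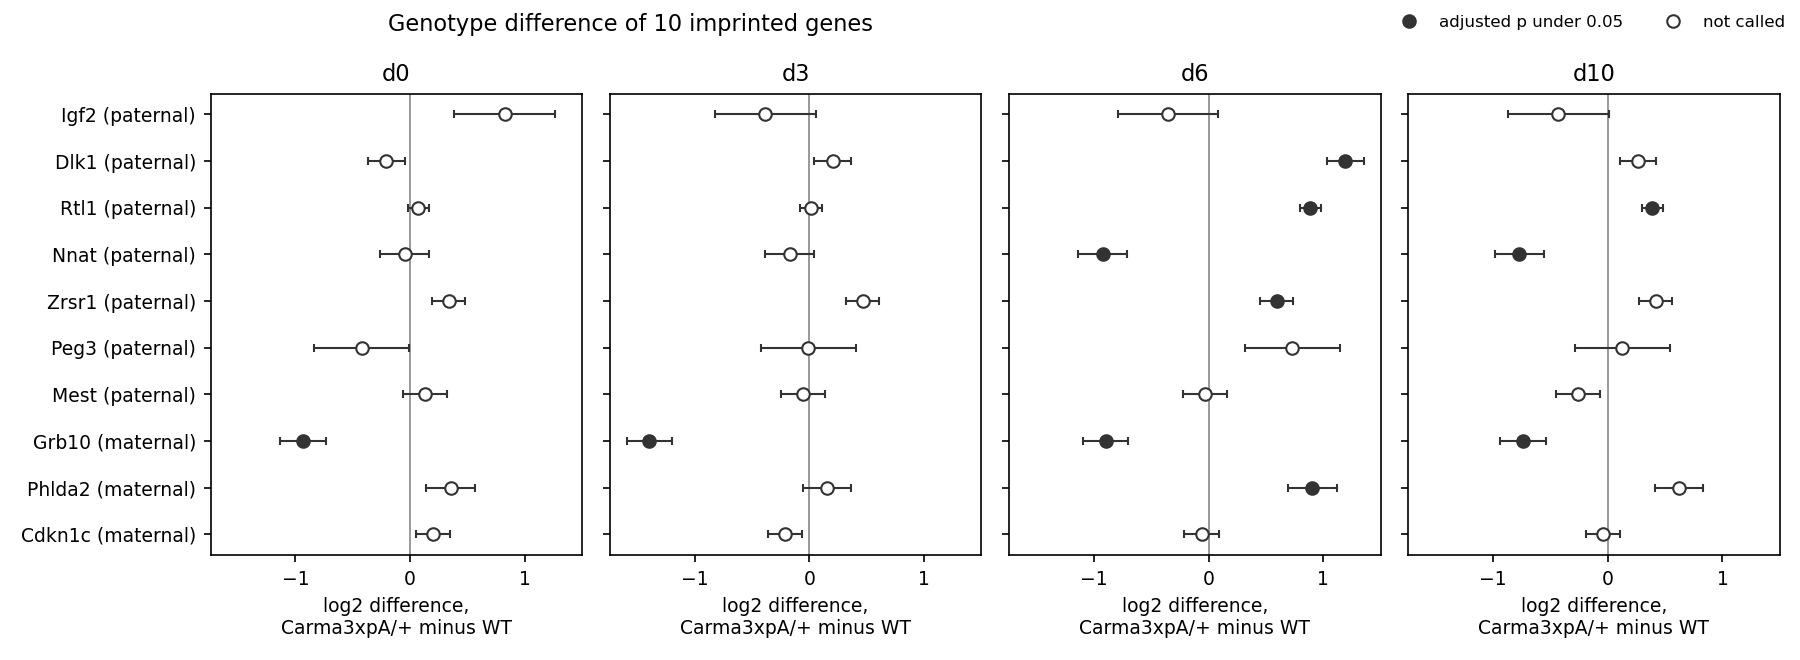
Difference between genotypes (Carma3xpA/+ minus WT, log2 scale) for each member on each day. Points are estimates from the fit across all genes, bars are ± 1 SE, and filled points have an adjusted p under 0.05. Grb10 is filled on all 4 days, at -0.93, -1.39, -0.90 and -0.74.

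Grb10 lies on chromosome 11 (chr11:11930508-12038683, minus strand, build mm10). In WT it stood at 28.5, 28.2 and 23.3 FPKM at d0 and 23.8, 25.8 and 28.6 at d3. It stood at 97.1, 92.4 and 99.5 FPKM at d6 and 67.7, 68.2 and 76.9 at d10. In Carma3xpA/+ the values were 7.34, 17.6 and 18.4 at d0, 9.14, 9.94 and 8.78 at d3, 54.0, 49.0 and 50.9 at d6, and 46.2, 41.3 and 38.9 at d10. No Carma3xpA/+ library reached the lowest WT library of its day, and both genotypes rose from d3 to d6. WT exceeded Carma3xpA/+ 1.85-fold at d0, 2.81-fold at d3, 1.88-fold at d6 and 1.68-fold at d10. The log2 differences were -0.93 ± 0.20 (adjusted p = 0.00329), -1.39 ± 0.20 (0.000148), -0.90 ± 0.20 (0.00716) and -0.74 ± 0.20 (0.0196). With library 1 of Carma3xpA/+ at d0 left out the d0 difference was -0.54 ± 0.10 (adjusted p = 0.000692), and in a fit of the d0 libraries alone it was not called (0.229). The d10 call was lost without WT replicate 3 (0.0865) or Carma3xpA/+ replicates 2 (0.0522) or 3 (0.0821).

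Nearly the whole Grb10 signal was assigned to 1 transcript, Grb10-201, whose first base, 12037401, lies inside the RefSeq upstream start at 12037420. Grb10-201 measured 172, 163 and 174 FPKM in WT at d6 against 93.4, 86.0 and 90.4 in Carma3xpA/+. At d3 it measured 42.3, 45.8 and 49.9 against 16.3, 17.7 and 15.6. The transcript that opens at the downstream start stayed at or below 2.75 FPKM in every library. Grb10-201 was lower in every Carma3xpA/+ library than in every WT library of d3 and of d6. Transcript values do not add up to the gene value, and they were not tested.

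Grb10 differed in the direction opposite to the median of its chromosome. Over the 1085 tested genes of chromosome 11 the median difference between genotypes was 0.126, 0.28, 0.263 and 0.217 on the log2 scale at d0, d3, d6 and d10. In the same order of days, 22.2%, 22.4%, 20.6% and 22.9% of these genes were called higher in Carma3xpA/+. Of the other genes of the chromosome, 4 at d0, 0 at d3, 6 at d6 and 11 at d10 had a lower value than Grb10. Its neighbours did not share 1 direction. Ddc, which encodes the enzyme that makes dopamine from L-DOPA, was higher on each day, for instance 2.05 against 0.847 FPKM at d3 (0.72 ± 0.11, adjusted p = 0.000271). In fits of 1 day alone the Ddc calls at d0, d6 and d10 were lost (0.16, 0.107 and 0.0844). The d6 call of Ddc was also lost without WT replicate 1 (0.165) or 2 (0.0999) or Carma3xpA/+ replicate 2 (0.121) or 3 (0.171). Its d10 call was lost without WT replicate 2 (0.0736) or Carma3xpA/+ replicate 2 (0.0629). Cobl, an actin nucleator, was lower at d0, at 4.65 against 9.82 FPKM (-0.94 ± 0.15, adjusted p = 0.000364, and 0.111 in a fit of the d0 libraries alone). At d3, where the Grb10 difference was largest, Cobl measured 1.379, 1.499 and 1.325 FPKM against 1.495, 1.373 and 1.437 (adjusted p = 0.989). At d6 Cobl was again lower, at 1.75 against 3.02 FPKM (-0.52 ± 0.15, adjusted p = 0.0347). That call was lost without any 1 library other than WT replicate 3 (0.06 to 0.2) and in a fit of the d6 libraries alone (0.108).

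**Figure D3:**
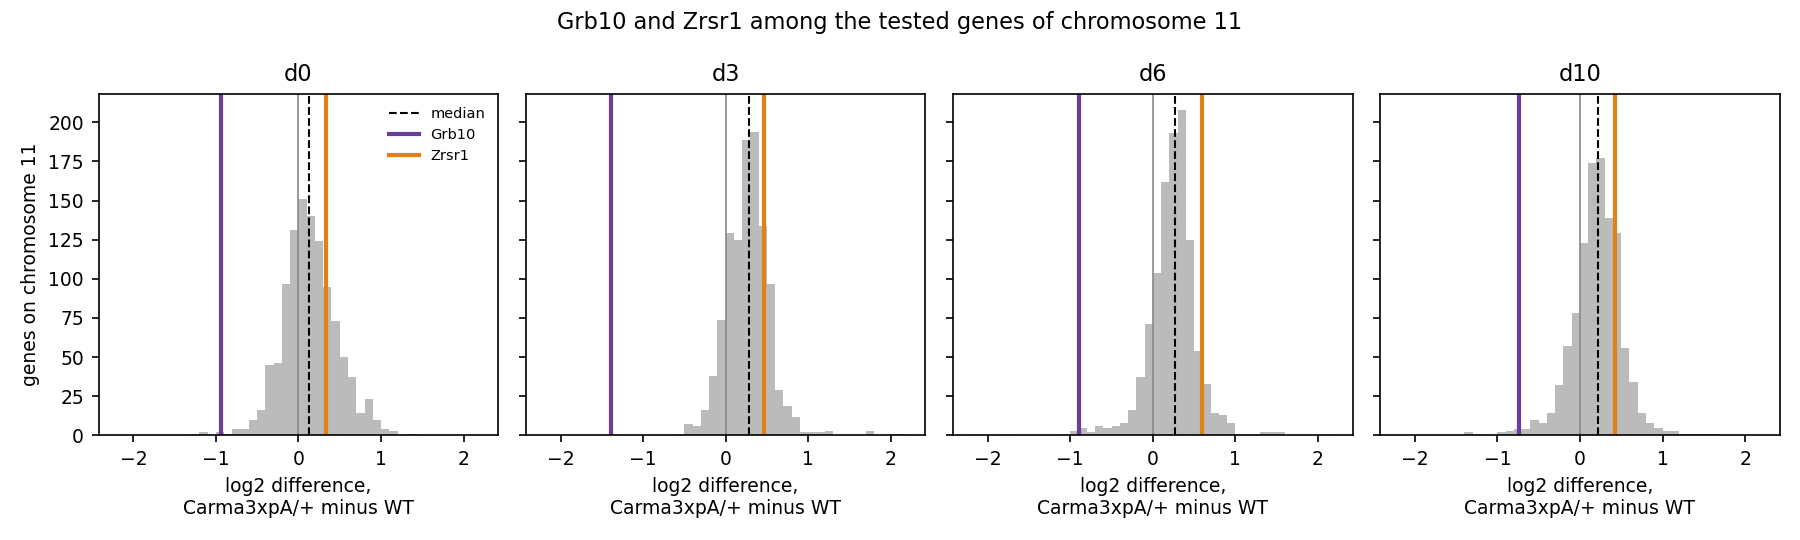
Number of tested genes on chromosome 11 by their difference between genotypes (Carma3xpA/+ minus WT, log2 scale, values beyond the axis placed in the end bins), with the median dashed. Grb10 (purple) lies in the left tail on each day and Zrsr1 (orange) to the right of the median.

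Zrsr1, a splicing factor gene that arose as a retrocopy and sits within Commd1 on the opposite strand, is the other member on this chromosome (chr11:22973215-22976496, plus strand). It was low and nearly flat in time. WT libraries held 6.69, 7.16 and 7.69 FPKM at d0, 6.50, 6.06 and 5.90 at d3, 6.11, 6.07 and 5.54 at d6, and 6.90, 6.88 and 7.41 at d10. Carma3xpA/+ libraries held 6.36, 12.3 and 10.2 at d0, 8.15, 9.17 and 9.35 at d3, 9.60, 9.32 and 9.35 at d6, and 11.17, 8.332 and 10.04 at d10. From d3 onward the groups did not overlap, and at d0 library 1 of Carma3xpA/+ was the lowest of all 6. Relative to WT the mean was 1.34-fold at d0, 1.44-fold at d3, 1.60-fold at d6 and 1.39-fold at d10. The call was made at d6 (0.59 ± 0.14, adjusted p = 0.0128) and missed at d0 (0.106), d3 (0.0585) and d10 (0.0664). Without library 1 of Carma3xpA/+ at d0 it was made on all 4 days (adjusted p = 0.000485, 0.00165, 0.000203 and 0.00287). The d6 call was lost without Carma3xpA/+ replicate 1 (0.0502) or WT replicate 3 (0.053). Of the genes of chromosome 11, 282 at d0, 205 at d3, 78 at d6 and 223 at d10 had a higher value than Zrsr1. Its host gene Commd1, a copper and NF-kappaB regulator, was higher at d0, at 8.87 against 6.59 FPKM (0.38 ± 0.09, adjusted p = 0.00723), and at d10 (0.36 ± 0.09, adjusted p = 0.0139). The d10 call of Commd1 was lost without WT replicate 3 (0.0994), and both were lost in fits of that day alone (0.171 and 0.0978). Whether counting used strand is not given, so reads of Zrsr1 and of Commd1 introns, or of the related gene Zrsr2, may not be fully separated.

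Dlk1 (chr12:109452823-109463336) and Rtl1 (chr12:109589193-109600330), neighbours in 1 imprinted cluster, both peaked at d6 in Carma3xpA/+. Dlk1 was between 0.414 and 1.98 FPKM in every library at d0 and d3. At d6 it measured 16.6, 26.2 and 26.7 FPKM in WT and 54.5, 53.1 and 51.3 in Carma3xpA/+, so the groups were far apart. The ratio was 2.29 (1.19 ± 0.16, adjusted p = 1e-04), a call that was kept under every alternative and without any 1 library of the groups compared. At d10 the values were 26.4, 27.7 and 30.0 in WT against 36.7, 33.2 and 31.7 (adjusted p = 0.334). Dlk1 fell from d6 to d10 in Carma3xpA/+ by 0.63 ± 0.16 on the log2 scale (adjusted p = 0.00257). The difference between genotypes grew from d3 to d6 by 0.99 ± 0.23 (adjusted p = 0.0205) and dropped by 0.93 ± 0.23 from d6 to d10 (0.0207). The first of these was lost without WT d3 replicate 3 (0.061) or Carma3xpA/+ d3 replicates 1 (0.0518) or 3 (0.0522) or d6 replicate 1 (0.0533). The second was lost without WT d6 replicate 1 (0.0536), WT d10 replicate 3 (0.064), or Carma3xpA/+ d6 replicate 1 (0.0537) or d10 replicate 3 (0.0571). With a pseudocount of 0.1 neither was called (0.325 and 0.156).

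Rtl1, a gene derived from a retrotransposon and needed in mouse for the fetal capillaries of the placenta, was at or below 0.133 FPKM in every library at d0 and d3. At d6 it was listed at 0.162, 0 and 0.313 FPKM in WT and at 1.10, 1.30 and 1.00 in Carma3xpA/+. At d10 it was listed at 0, 0.255 and 0.200 in WT and at 0.568, 0.383 and 0.556 in Carma3xpA/+. The groups did not overlap on either day, but the levels were low. The d6 difference, through which Rtl1 passed the filter, is given without a test at 0.89 on the log2 scale. At d10 the difference was 0.39 ± 0.09 (adjusted p = 0.00887), lost without WT replicate 1 (0.0682) and in a fit of the d10 libraries alone (0.0869). Dio3, at the other end of the cluster, encodes a thyroid hormone inactivating enzyme. It measured 2.31, 2.36 and 3.65 FPKM in Carma3xpA/+ at d6 against 4.21, 2.42 and 2.93 in WT. The Dio3 groups thus overlapped at d6 (adjusted p = 0.804), and at d10 Dio3 was lower in Carma3xpA/+ at 1.67 against 3.61 FPKM (-0.80 ± 0.22, 0.021). The d10 call of Dio3 was lost without WT replicate 3 (0.144) or Carma3xpA/+ replicate 1 (0.083) and in a fit of the d10 libraries alone (0.165).

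At d6 other cell type markers also differed in summed level between genotypes. The 8 visceral endoderm and yolk sac markers, all 8 at or above 1 FPKM on average in both groups, summed to 466 to 623.2 FPKM in Carma3xpA/+ and 134.7 to 179.8 in WT. The trophoblast markers, 6 of 7 at or above 1 FPKM, summed to 138.3 to 170.4 against 80.4 to 91.9. Singly, 7 of the 8 visceral endoderm and yolk sac markers and 2 of the 7 trophoblast markers were called higher at d6. In each list 0 were called lower, beside 4.3% of all genes higher and 3.48% lower. At d10 the 12 fibroblast markers, all 12 at or above 1 FPKM in both groups, summed to 703.7 to 895.8 in WT and 320.1 to 442.1 in Carma3xpA/+. The cardiomyocyte markers, 6 of 7 at or above 1 FPKM, summed to 389.8 to 561.3 and 994.6 to 1490. The part of these cells in the values of Dlk1, Rtl1 and Phlda2, or in the d10 values of Grb10 and Nnat, was not tested.

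Phlda2 and Cdkn1c are neighbours on distal chromosome 7 (chr7:143501545-143503150 and chr7:143458339-143461050), in the cluster next to that of Igf2 (chr7:142650766-142666816). Phlda2 fell from d0 to d3, rose to d6 and fell again to d10 in both genotypes. At d6 it measured 31.4, 49.5 and 31.0 FPKM in WT and 63.0, 82.2 and 63.3 in Carma3xpA/+. Every Carma3xpA/+ library was above every WT library, at a ratio of 1.86 (0.90 ± 0.21, adjusted p = 0.0105). That call was lost without WT replicate 1 (0.052) or 3 (0.0571) or Carma3xpA/+ replicate 2 (0.0594). At d10 the values were 20.8, 22.3 and 19.2 against 23.1, 42.9 and 34.3 (adjusted p = 0.0652). The rise of Phlda2 in WT from d3 (16.33, 23.97 and 30.85) to d6 was 1.57-fold (adjusted p = 0.013). It was lost without WT d3 replicate 1 (0.112) or d6 replicate 2 (0.103) and in a fit of these groups alone (0.0638).

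Cdkn1c followed the same course in both genotypes. In WT it measured 23.2, 15.8 and 14.2 FPKM at d0, 8.08, 8.55 and 8.29 at d3, 103, 95.9 and 115 at d6, and 99.1, 99.2 and 90.9 at d10. Carma3xpA/+ libraries held 20.4, 21.6 and 18.5, then 8.45, 6.48 and 6.36, then 95.8, 97.8 and 107, and then 77.7, 118 and 88.8. The genotypes overlapped on every day, with adjusted p of 0.372, 0.533, 0.9 and 0.895. The fall to d3 was 2.14-fold in WT (adjusted p = 1.45e-05) and 2.84-fold in Carma3xpA/+ (2.44e-07). The rise to d6 was 12.6-fold (1.27e-13) and 14.1-fold (9.71e-14). These 4 calls held under each alternative and without any 1 library of the groups compared.

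Igf2 had the highest mean level of the members at d6 in WT and at d10 in both genotypes, and a d0 level that varied between replicates. WT libraries held 10.96, 12.54 and 36.79 FPKM at d0, 3.89, 6.11 and 8.64 at d3, 247, 253 and 232 at d6, and 298, 298 and 315 at d10. Carma3xpA/+ libraries held 10.5, 58.6 and 48.6 at d0, 5.24, 4.06 and 3.77 at d3, 189, 207 and 177 at d6, and 209, 240 and 226 at d10. Igf2 fell 3.23-fold from d0 to d3 in WT (adjusted p = 0.0106) and 9.01-fold in Carma3xpA/+ (5.21e-05). It rose 39.3-fold and 43.9-fold to d6 (3.7e-09 and 3.14e-09). The WT fall was lost without WT d0 replicate 3 (0.0975) or d3 replicate 1 (0.058). At d6 and d10 every Carma3xpA/+ library was below every WT library, at ratios of 0.783 and 0.741, but neither difference was called (adjusted p = 0.751 and 0.596). In a fit of the d10 libraries alone the d10 difference was called (0.0354). At d0 the genotypes overlapped (0.197). With library 1 of Carma3xpA/+ at d0 left out, Igf2 was higher in Carma3xpA/+ by 1.57 ± 0.32 (adjusted p = 0.00205). That difference then dropped by 1.96 ± 0.43 from d0 to d3 (0.00776).

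Nnat (chr2:157560078-157562522), which encodes a small membrane protein of the endoplasmic reticulum known from developing brain, was lower in Carma3xpA/+ late in differentiation. At d0 the 6 libraries lay between 5.06 and 6.999 FPKM and at d3 between 7.40 and 11.9. At d6 WT held 51.0, 42.6 and 30.9 and Carma3xpA/+ 16.9, 27.6 and 19.7. At d10 WT held 55.5, 64.0 and 52.6 and Carma3xpA/+ 44.9, 23.7 and 33.9. The groups did not overlap on either day. The differences were -0.92 ± 0.21 (adjusted p = 0.00925) and -0.77 ± 0.21 (0.0222). The d6 call was lost without WT replicate 1 (0.0552) or Carma3xpA/+ replicate 1 (0.0636) and in a fit of the d6 libraries alone (0.0538). The d10 call was lost without WT replicate 1 (0.0526) or 2 (0.0902) or Carma3xpA/+ replicate 2 (0.135) or 3 (0.0585), and in a fit of the d10 libraries alone (0.1). Nnat rose from d3 to d6 in both genotypes, 4.41-fold in WT and 2.63-fold in Carma3xpA/+ (adjusted p = 7.11e-08 and 2.71e-05). Its rise from d0 to d3 in WT (adjusted p = 0.0405) was lost without WT d0 replicate 1 (0.0634) or 2 (0.158) or d3 replicate 1 (0.0668) or 3 (0.199). The rise from d6 to d10 in Carma3xpA/+ (0.0159) was lost without d6 replicate 1 (0.0904) or d10 replicate 1 (0.106).

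The 8 neural markers summed to 27.3 to 31.7 FPKM in WT at d6 and to 16.4 to 21.8 in Carma3xpA/+, with 4 of 8 at or above 1 FPKM in each group. At d10 they summed to 76.4 to 108.1 with 7 of 8, and to 39.4 to 84.9 with 4 of 8. At d3 the neural markers summed to 42.3 to 43.5 in WT and 32.8 to 36.1 in Carma3xpA/+. The sums thus fell from d3 to d6, a step in which Nnat rose in both genotypes. The part of these markers in the Nnat values was not tested. Blcap, within which Nnat lies on the opposite strand, measured 11.1, 10.2 and 11.7 FPKM in WT at d6 and 10.8, 10.2 and 8.58 in Carma3xpA/+, and was not called on any day.

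Peg3 (chr7:6703892-6730431) encodes a zinc finger protein. It measured 46.3, 44.0 and 30.3 FPKM in WT at d0, 16.7, 24.4 and 30.9 at d3, 88.1, 92.6 and 104 at d6, and 55.7, 57.2 and 71.1 at d10. Carma3xpA/+ libraries held 8.82, 53.3 and 50.8 at d0, 17.9, 29.9 and 23.0 at d3, 164, 154 and 156 at d6, and 83.9, 55.6 and 63.5 at d10. At d6 the groups were clearly apart, at a ratio of 1.66, yet the difference was not called (0.73 ± 0.41, adjusted p = 0.369). Without library 1 of Carma3xpA/+ at d0, at 8.82 FPKM the lowest of all 24, the SE was 0.20 and the adjusted p 0.0209. The d6 difference was called under 2 of 9 alternatives, this one included, and the lowest adjusted p was 0.00577. Peg3 rose from d3 to d6 3.96-fold in WT and 6.69-fold in Carma3xpA/+ (adjusted p = 0.000358 and 9.41e-06). It then fell 2.33-fold to d10 in Carma3xpA/+ (0.0167), a call lost without d10 replicate 2 (0.0635). Usp29, the adjoining paternally expressed gene, measured 3.98, 3.13 and 3.12 FPKM in WT at d6 and 6.05, 5.39 and 5.98 in Carma3xpA/+, without overlap but not called (adjusted p = 0.0672).

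Mest (chr6:30723547-30748465), which encodes an enzyme-like protein of the endoplasmic reticulum and marks mesoderm, had the second highest mean level of the members at d6 in WT and the highest in Carma3xpA/+, where its libraries overlapped those of Igf2. WT held 27.5, 27.3 and 28.5 FPKM at d0, 34.2, 41.8 and 47.5 at d3, 218, 209.9 and 200.2 at d6, and 158, 159.9 and 174 at d10. Carma3xpA/+ held 19.4, 35.9 and 40.1, then 38.8, 44.3 and 35.2, then 195, 220.1 and 201, and then 171, 107 and 142. The genotypes overlapped on every day. The rise from d3 to d6 was 5.09-fold in WT (adjusted p = 2.1e-09) and 5.21-fold in Carma3xpA/+ (1.66e-09). The earlier rise of Mest in WT (1.48-fold, 0.0215) was lost without WT d0 replicate 1 (0.0502) or 2 (0.0525) or d3 replicate 2 (0.0547) or 3 (0.0991). Its fall from d6 to d10 in Carma3xpA/+ (1.47-fold, 0.0153) was lost without d6 replicate 2 (0.0526) or d10 replicate 2 (0.112). Transcripts from both Mest starts were listed, but their shares jumped between replicates, with Mest-210 at 37.7, 0 and 34.8 FPKM and Mest-211 at 6.604, 41.78 and 11.08 in WT at d0. The use of the 2 starts was therefore not compared.

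The change of the genotype difference between consecutive days was tested for the 10 members. From d0 to d3 limma called 0 higher and 0 lower, beside 2.07% and 1.56% of all genes. From d3 to d6 it called 2 higher, Dlk1 and Rtl1, and 0 lower (0.785% and 1.88%). From d6 to d10 it called 0 higher and 2 lower, again Dlk1 and Rtl1 (1.51% and 2.71%). The Rtl1 calls rest on the group through which it passed the filter. With library 1 of Carma3xpA/+ at d0 left out, Igf2 and Grb10 were called lower from d0 to d3, Grb10 by -0.86 ± 0.13 (adjusted p = 0.000266), beside 3.97% of all genes. From d3 to d6 Grb10 was then called higher beside Dlk1 and Rtl1, by 0.50 ± 0.12 (adjusted p = 0.0206). Of the early calls in Carma3xpA/+, the fall of Dlk1 from d0 to d3 (adjusted p = 0.0338) and that of Grb10 (0.0447) held without 1 library only when that library was replicate 1 at d0. Leaving out any other of the 6 libraries gave adjusted p of 0.0537 to 0.216 for Dlk1 and 0.0602 to 0.265 for Grb10.

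In the wider set of imprinted genes more rose than fell from d3 to d6. Of 24 tested genes known as paternally expressed, 14 rose and 4 fell from d3 to d6 in WT, and 16 rose and 3 fell in Carma3xpA/+, beside 35.4% of all genes higher and 24.7% lower in WT and 37.8% and 25.5% in Carma3xpA/+. Their median log2 change was 1.13 and 1.17, beside 0.0961 and 0.109 over all genes. Plagl1, a zinc finger factor that acts on other imprinted genes, rose from 1.29 to 34.8 FPKM in WT (adjusted p = 3.69e-09) and from 1.06 to 34.1 in Carma3xpA/+ (1.61e-09). Of 20 maternally expressed genes 15 rose and 1 fell in each genotype, beside the same shares of all genes, with medians of 0.724 and 1.00. Igf2r, the receptor that clears IGF2, rose from 10.3 to 58.3 FPKM in WT (4.38e-10) and from 8.21 to 52.0 in Carma3xpA/+ (1.93e-10). Asb4, expressed in early vessels and placenta, rose from 6.85 to 33.9 (1.61e-05) and from 3.05 to 38.6 (1.06e-07). The 10 members are among these genes. Rtl1 is counted among the 16 although it passed the filter only through the Carma3xpA/+ libraries of d6.

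**Figure D4:**
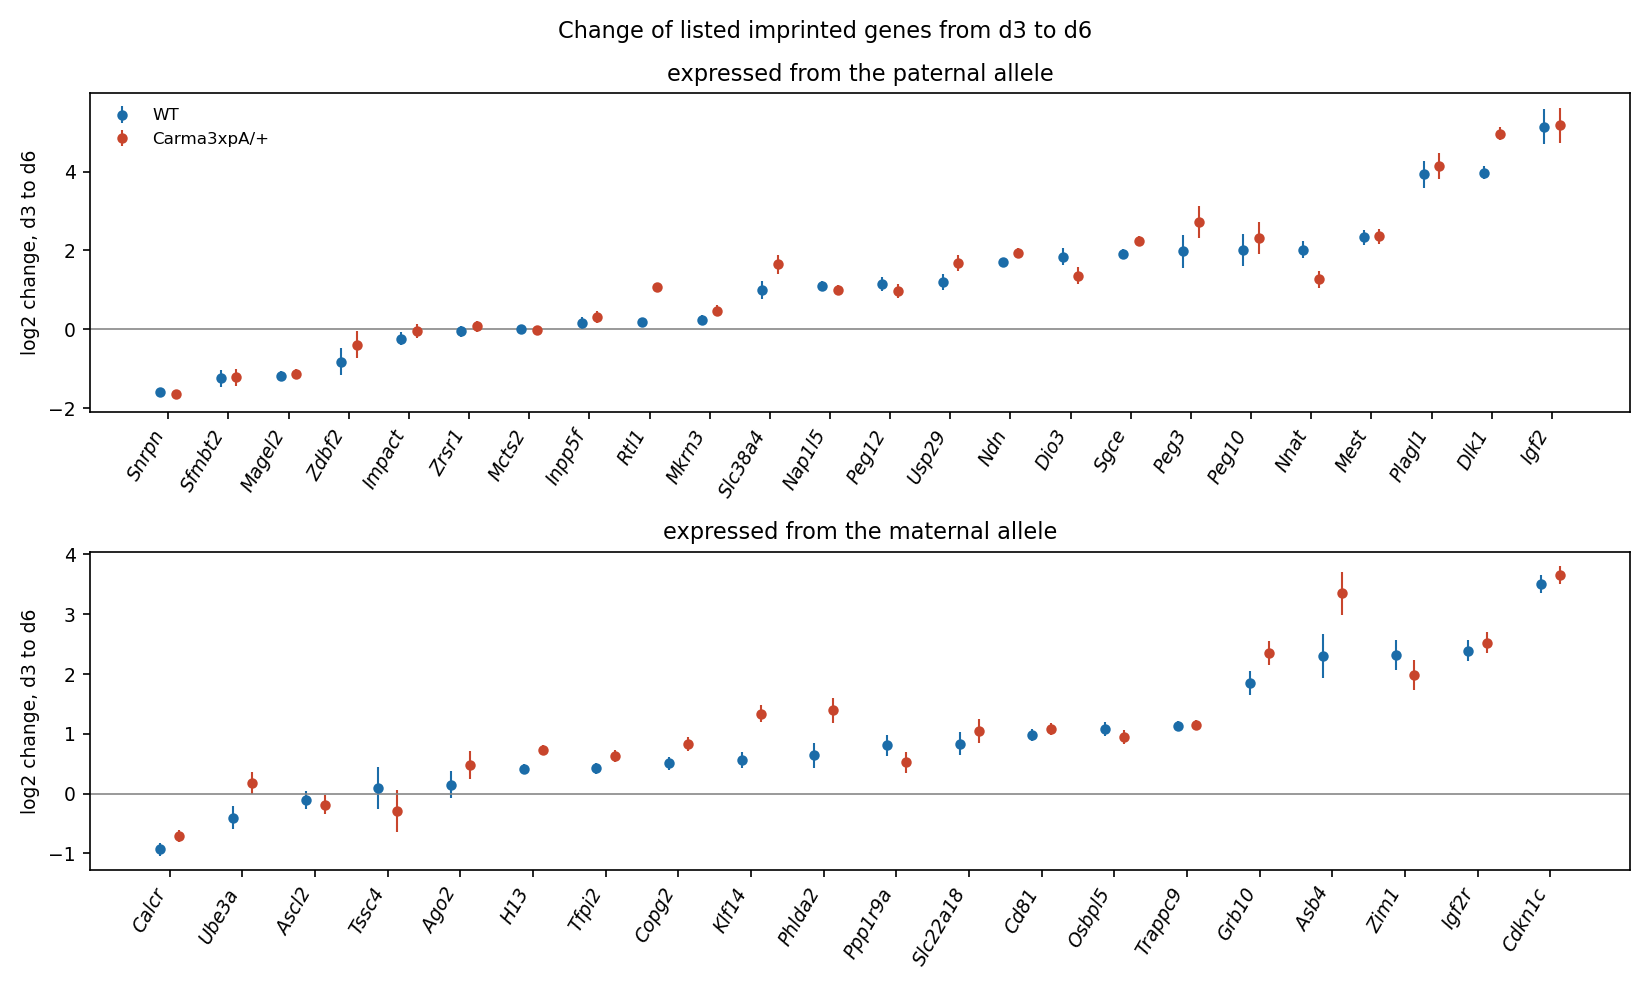
Log2 change from d3 to d6 (± SE) of 24 paternally and 20 maternally expressed genes, ordered by the change in WT (blue) and with Carma3xpA/+ beside it (red). Most genes lie above 0 in both genotypes, with Igf2, Dlk1, Plagl1 and Cdkn1c at the upper end.

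Between genotypes the counts of called genes are given with the shares of all genes, which were 9.53%, 4.54%, 4.3% and 4.95% higher and 9.29%, 1.93%, 3.48% and 5.91% lower in Carma3xpA/+ at d0, d3, d6 and d10. The 10 members are included in these counts. Of the 24 paternally expressed genes, 2, 0, 3 and 2 were higher and 0, 0, 1 and 3 lower on these days. Those called at d6 were all members, with Dlk1, Rtl1 and Zrsr1 higher and Nnat lower. Rtl1 is counted as higher at d6 and d10 although it passed the filter only through the Carma3xpA/+ libraries of d6. Of the 20 maternally expressed, 1, 0, 2 and 1 were higher and 6, 2, 2 and 5 lower on the same days. The 6 lower at d0 were Grb10, Igf2r, Ago2, Copg2, Cd81 and Trappc9, and the 5 at d10 were Zim1, Grb10, Ube3a, Tfpi2 and Osbpl5. In fits of d0 alone each of these 6 was lost (adjusted p = 0.146 to 0.323), and of the 5 all but Grb10 were lost in a fit of d10 alone (0.0619 to 0.111). Ago2 (0.0799) and Copg2 (0.058) were also lost at d0 without library 1 of Carma3xpA/+ at d0. With library 1 of Carma3xpA/+ at d0 removed, the paternally expressed had 7, 3, 10 and 3 higher and 0, 0, 1 and 3 lower. The maternally expressed then had 2, 0, 3 and 1 higher and 4, 5, 2 and 6 lower. In that fit the shares of all genes were 10.7%, 7.35%, 7.42% and 8.05% higher and 6.31%, 4.34%, 5.36% and 9.83% lower. Rtl1 is again counted as higher at d6 and d10. Klf14, a maternally expressed factor gene near Mest, was higher at d6 at 2.10 against 0.727 FPKM (0.85 ± 0.14, adjusted p = 0.000415). Zim1, next to Peg3, was lower at d10 at 2.60 against 6.85 FPKM (-1.11 ± 0.25, adjusted p = 0.00555), a call lost without WT replicate 3 (0.0514) and in a fit of the d10 libraries alone (0.0744).

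The insulin-like growth factor axis, in which Igf2 is a ligand and Grb10 a brake, was measured as a group. Of 20 tested genes 0 were higher and 2, 1, 2 and 1 lower in Carma3xpA/+ at d0, d3, d6 and d10, Grb10 being among them each day. The shares of all genes on these days were 9.53%, 4.54%, 4.3% and 4.95% higher and 9.29%, 1.93%, 3.48% and 5.91% lower. With library 1 of Carma3xpA/+ at d0 left out the counts were 2, 0, 1 and 2 higher and 2, 2, 4 and 3 lower. Of all genes 10.7%, 7.35%, 7.42% and 8.05% were then higher and 6.31%, 4.34%, 5.36% and 9.83% lower. Igf2r was lower at d0, at 15.9 against 26.0 FPKM (-0.74, adjusted p = 0.00727, and 0.231 in a fit of the d0 libraries alone). In time 15 of 20 rose from d3 to d6 in each genotype and 0 fell in WT and 1 in Carma3xpA/+, beside 35.4% and 37.8% of all genes higher and 24.7% and 25.5% lower. Igfbp5, which binds IGFs outside the cell, rose from 0.565 to 198.9 FPKM in WT and from 0.866 to 113 in Carma3xpA/+ (adjusted p = 2.82e-13 and 3.57e-12). From d6 to d10 Igfbp7 rose from 1.97 to 117 and from 1.73 to 91.3 FPKM (2.15e-14 and 9.72e-14).

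Of 13 genes that maintain or erase imprints, 2, 2, 1 and 3 were higher in Carma3xpA/+ at d0, d3, d6 and d10, and 3, 0, 0 and 0 lower, beside 9.53%, 4.54%, 4.3% and 4.95% of all genes higher and 9.29%, 1.93%, 3.48% and 5.91% lower. Among those lower at d0 were the demethylase genes Tet1, at 9.59 against 15.6 FPKM (-0.66 ± 0.14, adjusted p = 0.00321), and Tet2, at 3.16 against 5.24 (-0.57 ± 0.16, 0.0165). Neither was called in a fit of the d0 libraries alone (0.138 and 0.165), and Tet2 was lost without WT replicate 3 (0.0748). Dppa3, a maternal-effect factor that protects DNA methylation in the zygote, was higher on each day, at 73.6 against 40.9 FPKM at d0, 38.2 against 15.0 at d3, 5.62 against 2.35 at d6 and 8.09 against 2.54 at d10. The adjusted p were 0.00144, 2.96e-05, 0.000362 and 4.82e-06, and the d0 value was 0.083 in a fit of the d0 libraries alone. Dnmt3l, a cofactor of de novo methylation, was higher at d3 at 28.8 against 14.9 FPKM (0.90, adjusted p = 0.00363). The methyltransferase gene Dnmt3b was higher at d10 at 19.7 against 9.50 FPKM (0.99, adjusted p = 0.000284). Both genotypes peaked in Dnmt3b at d3 (234 FPKM in WT and 286 in Carma3xpA/+) and fell to 20.4 and 26.6 at d6.

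As a description of shared patterns, each member was correlated with 9071 other tested genes of at least 5 FPKM in 1 group (9072 for Rtl1), over the 8 group means, with no test. Igf2 and Cdkn1c were most alike among the members (Pearson r = 0.994), and Cdkn1c was the second most similar of all genes to Igf2. Nearest to Dlk1 were Foxf1, a mesoderm factor (0.9944), the imprinted gene Sgce (0.9934) and Apoa1, an apolipoprotein of yolk sac endoderm (0.9922). Nearest to Rtl1 was Gm44805 (0.9823), followed by Cubn, an endocytic receptor of visceral endoderm (0.9597). Nearest to Peg3 were Vegfc and Kitl (0.9887 and 0.9884), to Mest Samd14 and Tspan12 (0.9955 and 0.9948), and to Nnat Gdf11 (0.9879). The 3 genes nearest to Zrsr1 (Cox10, Ube2z and Vdac1, 0.9101 to 0.9368) and the 3 nearest to Phlda2 (Alkbh5, Gna13 and Dvl2, 0.9373 to 0.9666) lie on chromosome 11, whereas those nearest to Grb10 (Stx2, Cfap97 and Pias3, 0.9581 to 0.9688) do not. Genes of chromosome 11 were also near to other members. They were Nog and Sat2 for Cdkn1c (0.996 and 0.9959), Samd14 for Mest, and Tmub2 for Rtl1 (0.9594). The 8 points share their libraries between genes.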

How the data were processed

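RNA was measured in 24 libraries, 3 for each of 8 groups, with genotype, day and replicate taken from the titles. The authors deposited gene and transcript tables of FPKM, per the file headers. The tools listed, per the submitters' processing notes, are HISAT2, StringTie, cutadapt and FastQC, and the build is mm10, with versions and settings not given in the sources used here. FPKM is relative to each library's total, so strongly expressed genes can lower the values of others. Depth is unknown: the commonest ratio of low values between replicates held for 7 of 208 genes, so whole reads were not recovered, and precision rests on the 3 replicates.

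Genes with at least 1 FPKM in 3 samples (13373) were fitted on log2(FPKM + 1) with limma 3.58.1 in R 4.3.3, with 8 group means, 16 residual degrees of freedom and a trend of variance on expression, for 13 contrasts. P-values were two-sided and Benjamini-Hochberg adjusted within a contrast. The members and the lists were chosen with earlier results of these data known. Of 152 listed symbols 143 were in the table. Named were the members, their neighbours, up to 4 called genes per list and contrast with the largest change, and the 3 genes most similar to a member. Promoter sequences came from RefSeq (GRCm38.p6) and matched 8 of 10 members. The fit was tested on simulated data. Alternatives were a pseudocount of 0.1, no filter, a filter of 5 FPKM, median-of-ratios scaling with and without chromosome 11, and quantile normalization. Further ones were only the groups compared, a replicate block, exclusion of library 1 of Carma3xpA/+ at d0, and leaving out each library. Transcript values were summed per member as group means and SD only, and calls were not made on them.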

Additional observations from a re-analysis of the deposited data

Results flagged for a closer look

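The difference between genotypes itself was picked out as changing between days for Dlk1 and Rtl1, the neighbouring genes on chromosome 12, in the fit across all genes. For Dlk1 it grew by 0.99 ± 0.23 (SE, log2 scale, adjusted p = 0.0205, limma) from d3 to d6, and from d6 to d10 it changed by -0.93 ± 0.23 (0.0207). For Rtl1 the changes were 0.87 and -0.50, given without a test, since Rtl1 passed the filter on low values only through the Carma3xpA/+ libraries of d6 and so had to differ there. At d6 both genes were higher in 3 of 3 Carma3xpA/+ libraries than in any WT library. Rtl1 was at or below 1.30 FPKM in every library. With a pseudocount of 0.1 the changes of Dlk1 were not called (adjusted p = 0.325 and 0.156).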

How the results depend on the processing

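Of 130 differences (10 members, 13 contrasts), 50 were called, 26 more were called under an alternative alone, and none of the 50 changed sign under any alternative run. Counts of called members moved as follows. For the genotype difference at d0 (1 member) the count was 0 with only the groups compared, 2 with median-of-ratios scaling (with or without chromosome 11) or quantile normalization, and 4 without library 1 of Carma3xpA/+ at d0. At d3 (1 member) it was 2 under each of these 5. For WT from d6 to d10 (1 member) it was 6 with only the groups compared, 3 and 2 with median-of-ratios scaling with and without chromosome 11, 4 with quantile normalization and 5 without that library. For the change from d0 to d3 (0 members) it was 2 without that library. For the changes from d3 to d6 and from d6 to d10 (2 members each) it was 0 with a pseudocount of 0.1 and 1 with a filter of 5 FPKM, which drops Rtl1, and for the latter 1 with only the groups compared. Otherwise the cause was not tested. The share of all genes called moves with the setting as well. For WT from d6 to d10 it was 24.6% higher and 23.9% lower in the main fit, and 28.1% and 28.5% without that library. Shares under the other alternatives are not given here, so these counts do not set the members apart from other genes. Leaving out 1 library gave counts of 1 to 4 (d0), 1 to 4 (d10), 3 to 7 (Carma3xpA/+ d0 to d3), 0 to 2 (changes d0 to d3 and d6 to d10), 1 to 2 (change d3 to d6) and 1 to 2 (WT d6 to d10). Of the 54 differences never called, 25 changed sign under some alternative. Of the 26 called under an alternative alone, 4 changed sign when 1 library was left out, ranging from -0.265 to 0.0335 (Cdkn1c, Carma3xpA/+ d6 to d10), -0.0668 to 0.439 (Mest, genotype at d0), -1.14 to 0.10 (Peg3, Carma3xpA/+ d0 to d3) and -0.31 to 0.12 (Zrsr1, same step). Replicate numbers did not pair the samples: 4 of 30 same-number pairs deviated together at a correlation over 0.1. With the number as a replicate block the calls of Grb10 in Carma3xpA/+ (adjusted p = 0.0505) and Nnat in WT (0.0527) from d0 to d3 were lost. Unknown depth leaves the counting error of low genes such as Rtl1 unmeasured.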
